A study of Mus musculus with 6 samples.

Results

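Insulin-like growth factor (IGF) binding proteins and the receptor substrate Irs1 were followed in vascular smooth muscle cells grown from mouse aorta after 48 h with a small interfering RNA against Sirt6. Genes were taken by symbol: of the 10 that the list names, 5 were in the tables, among 7384 genes in all. They are Igfbp2, Igfbp3, Igfbp4, Igfbp5 and Irs1. The ligand genes Igf1 and Igf2, the receptor genes Igf1r and Igf2r, and Igfbp6 were not analysed here. The siSirt6 group had 3 libraries of cells treated with the small interfering RNA, and the Control group had 3 libraries of cells from the same source. What the Control cultures received, the genotype, age and number of the mice, and whether the libraries came from separate cultures are not stated in the labels, so p-values measure the spread between these libraries, which may be technical. Sirt6 encodes an NAD-dependent deacylase that acts on chromatin.

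IGFs are secreted peptides that signal through the IGF1 receptor, a tyrosine kinase whose activation passes through adaptors such as IRS1 to the PI3K and MAP kinase pathways. In the extracellular space most IGF is held by IGF-binding proteins, which set how much reaches the receptor, and which proteases cleave to release it. In the artery wall IGF signalling is known for supporting the growth and survival of smooth muscle cells.

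The tables hold a selection of genes that differ: with limma, 99.8% of the 7179 genes tested passed an adjusted p of 0.05, and in 96.8% the ranges of the groups did not overlap. That a member passed therefore says little, and sizes are given beside those of all tested genes. Listed genes took between 14458847 and 15526399 reads per library. Values are reads divided by 1 factor per library, called normalised read counts. Sirt6 itself stood at 251.7, 257.0 and 270.4 in the Control libraries and at 44.5, 59.8 and 63.5 in the siSirt6 libraries. Smooth muscle actin Acta2 was abundant, at a level of 28626 reads per kb of transcript in Control, whereas Myh11, the smooth muscle myosin, stood at 90.9 and the calponin gene Cnn1 at 179.8. Of the other smooth muscle markers, Tpm2 stood at 5031, Cald1 at 2837 and Tagln at 112.0 per kb. Fibroblast markers were present too, from 58.6 for Pi16 through 668.5 for Pdgfra and 9170 for Ly6a to 27177 for Gsn.

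Promoters are shown for the 4 binding protein genes because they moved in opposite directions. Each is the 250 bases before the RefSeq start on GRCm38.p6, the build also called mm10, written 5′ to 3′ on the gene's own strand. Capitals mark matches on either strand to 1 of 7 motifs. These were the TATA box, searched as TATAAA or as TATATA, the CCAAT box, searched as CCAAT, the GC box, searched as GGGCGG, the AP-1 motif, searched as TGANTCA, the FOXO motif, searched as GTAAACA, and the E-box, searched as CACGTG. The first pair rose in siSirt6 and the second pair fell.
Igfbp2, chr1:72824230-72824479, plus strand: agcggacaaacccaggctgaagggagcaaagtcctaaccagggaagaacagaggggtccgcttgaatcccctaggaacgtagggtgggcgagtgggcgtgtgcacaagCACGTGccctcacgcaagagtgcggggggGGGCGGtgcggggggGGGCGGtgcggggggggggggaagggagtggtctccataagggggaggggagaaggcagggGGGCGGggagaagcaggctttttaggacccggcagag
Igfbp5, chr1:72874866-72875115, minus strand: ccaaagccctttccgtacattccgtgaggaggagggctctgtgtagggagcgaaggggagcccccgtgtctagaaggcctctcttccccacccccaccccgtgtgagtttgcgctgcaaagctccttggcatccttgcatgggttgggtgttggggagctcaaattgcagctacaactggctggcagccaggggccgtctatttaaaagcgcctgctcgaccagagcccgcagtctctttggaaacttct
Igfbp3, chr11:7213924-7214173, minus strand: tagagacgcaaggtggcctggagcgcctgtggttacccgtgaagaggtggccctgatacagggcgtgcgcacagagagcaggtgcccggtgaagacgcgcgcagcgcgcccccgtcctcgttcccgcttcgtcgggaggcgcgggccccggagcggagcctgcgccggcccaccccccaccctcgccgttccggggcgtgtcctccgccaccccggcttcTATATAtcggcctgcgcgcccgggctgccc
Igfbp4, chr11:99040994-99041243, plus strand: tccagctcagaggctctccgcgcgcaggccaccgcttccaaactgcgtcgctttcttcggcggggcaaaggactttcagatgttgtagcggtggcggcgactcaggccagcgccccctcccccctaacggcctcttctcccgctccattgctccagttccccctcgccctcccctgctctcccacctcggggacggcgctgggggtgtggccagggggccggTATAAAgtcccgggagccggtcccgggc

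The genes that fell, Igfbp3 and Igfbp4, each match a searched TATA form close to the start. In Igfbp3 it is TATATA, beginning 30 bases before the start, and in Igfbp4 it is TATAAA, beginning 28 bases before it. TATATA was found in 5.25% and TATAAA in 12.4% of 32851 mouse promoter windows of this length. The Igfbp2 window holds GGGCGG at 3 places, a motif present in 32.7% of windows, and CACGTG at 1 place, present in 6.02%. The Igfbp5 window has no match to the 7 motifs. It does hold the stretch tatttaaaa, which the exact TATA forms searched cannot match. How TATA matches divide between these genes therefore depends on the forms searched. For Igfbp5 the GENCODE start lies 19 bp upstream of the RefSeq start used, inside the window shown. For Igfbp2 it lies 23 bp downstream. Distances to the start for these 2 genes therefore depend on the annotation used. The Igfbp3 window holds the most CpG dinucleotides of the 4, at 32, more than 95.4% of windows. Igfbp4 holds 22, Igfbp2 14 and Igfbp5 10, more than 85.2%, 70.6% and 62.2% of windows. All of them exceed the median of 6. A match is a description of the letters and no evidence of binding.

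Igfbp3 fell and Igfbp2 and Igfbp5 rose, each by close to 2-fold, while Igfbp4 fell less and Irs1 fell with overlapping libraries. Of the 5 members, 2 were higher and 3 lower, beside 50.5% higher and 49.3% lower among all tested genes. Igfbp2 and Igfbp5 were at least 2-fold higher by group means, as were 4.21% of tested genes, and 7.98% of tested genes changed at least 2-fold in either direction. None was at 0.5 of Control or less, where 3.77% of tested genes stood. The median log2 fold change was -0.27 over the 5 members and 0.08 over all tested genes. In these bulk cultures, fewer cells of a type and less RNA per cell cannot be told apart.

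Igfbp3, the main carrier of IGF in blood and a protein that cells also secrete locally, lies on chromosome 11 at 7206086 to 7213923 (minus strand). Its normalised read counts were 4299, 4267 and 4494 in Control and 2236, 2155 and 2265 in siSirt6. Every siSirt6 library was far below every Control library, and the spread within each group was small. The mean fell from 4353 ± 123 to 2218 ± 57.0 (SD, n = 3), to 0.510 of Control. The log2 fold change was -0.97 ± 0.031 (SE; limma with Benjamini-Hochberg adjustment, adjusted p = 6.31e-24), and 8.2% of tested genes had a larger change in either direction.

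Igfbp4, which mostly restrains IGF action and is cut by the protease PAPP-A, lies on the same chromosome at 99041244 to 99054392 (plus strand). It stood at 2613, 2535 and 2554 in Control and at 2111, 2146 and 2117 in siSirt6. The groups were apart, with a gap several times the spread inside either. From 2568 ± 40.5 the mean went to 2125 ± 18.9 (SD, n = 3), 0.828 of Control, a log2 fold change of -0.27 ± 0.033 (SE; limma adjusted p = 6.11e-09). This was a small change for these tables: 67.9% of tested genes had a larger one.

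Igfbp2, which carries an integrin-binding sequence beside its IGF-binding domains, lies on chromosome 1 at 72824503 to 72852474 (plus strand). Control libraries held 704.5, 784.8 and 749.4, and siSirt6 libraries 1583, 1590 and 1423. The lowest siSirt6 library was well above the highest Control library. Its mean rose from 746.2 ± 40.2 to 1532 ± 94.6 (SD, n = 3), 2.05-fold. The log2 fold change was 1.04 ± 0.051 (SE; limma adjusted p = 1.43e-18), and 7.06% of tested genes changed more.

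Igfbp5, a binding protein that attaches to extracellular matrix, is the neighbour of Igfbp2, at 72857932 to 72874884 on the minus strand. Read counts of 295.7, 292.1 and 269.5 in Control compared with 598.2, 650.5 and 601.5 in siSirt6. Again no library of one group came near the other. The rise was 2.16-fold, from 285.7 ± 14.2 to 616.7 ± 29.3 (SD, n = 3), with a log2 fold change of 1.11 ± 0.073 (SE; limma adjusted p = 3.59e-15). Of tested genes, 6.07% changed more. It was the largest change among the 5 members, except that scaling to listed totals gave -1.09 for Igfbp3 and 0.99 for Igfbp5.

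Irs1, the adaptor that carries the signal from the IGF1 and insulin receptors to PI3K, lies on chromosome 1 at 82233101 to 82291416 (minus strand). It was the lowest of the 5, at 153.2, 118.8 and 143.9 in Control and 86.0, 121.6 and 79.1 in siSirt6. siSirt6 replicate 2 lay above Control replicate 2, so the groups overlapped. The mean went from 138.6 ± 17.8 to 95.6 ± 22.8 (SD, n = 3), 0.690 of Control, with a log2 fold change of -0.55 ± 0.153 (SE; limma adjusted p = 0.00145). The call ended after correction for transcript length and GC (log2 -0.23 ± 0.152, limma adjusted p = 0.170). Irs1 also overlaps the gene Gm9747 on the opposite strand, and no source used here says whether the counting used strand. Its relative Irs3, named after its values were seen, stood at 90.7, 64.3 and 62.8 in Control and 34.6, 37.1 and 46.8 in siSirt6. All siSirt6 libraries of Irs3 were below all Control libraries, a log2 fold change of -0.85 ± 0.205 (SE; limma adjusted p = 3.26e-04).

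**Figure D1:**
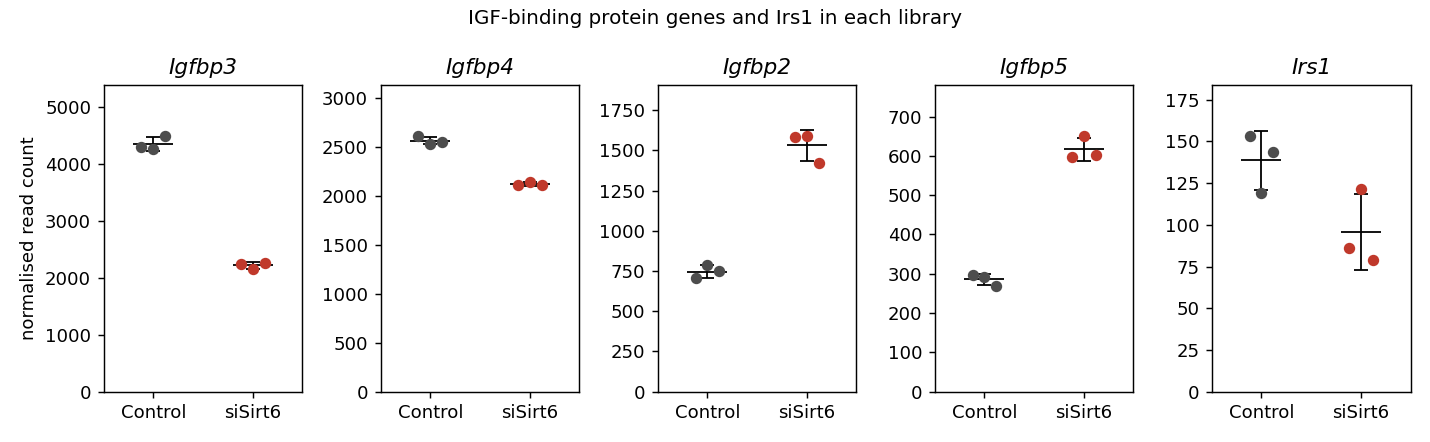
Normalised read counts (y axis, from 0) of the 4 binding protein genes and Irs1 in the Control and siSirt6 libraries, replicates 1 to 3 from left to right in each group, with the mean and SD as bars. Igfbp3 and Igfbp4 are lower in every siSirt6 library, Igfbp2 and Igfbp5 higher in every one, and the groups overlap for Irs1.

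Igfbp2 and Igfbp5 lie tail to tail, 5457 bp apart, with no protein-coding gene between them. Of 2678 pairs of adjacent protein-coding genes in which both were tested, 10 pairs (0.373%) had both genes at least 2-fold higher, this pair included. Among the 1376 of these pairs at most 10 kb apart, it was 3 (0.218%). Whether the 2 genes share control was not tested. The next protein-coding gene of the tables within 200 kb was Rpl37a, a ribosomal protein gene 110689 bp from Igfbp2, which rose 1.49-fold. The ratio of Igfbp2 to Igfbp5 read counts was 2.38, 2.69 and 2.78 in Control and 2.65, 2.44 and 2.37 in siSirt6. These ranges overlapped (log2 change -0.07; exact permutation p = 0.4, 2-sided, 0.4 adjusted over 4 ratios), which does not show that the genes moved alike. On chromosome 11, Igfbp1 lies 3539 bp from Igfbp3 and was not analysed here.

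The order of these 4 binding proteins changed, leaving aside the far more abundant Igfbp7 described further on. Per kb of longest annotated transcript, Igfbp3 was the highest of the 4 in Control at 1798, followed by Igfbp4 at 670.2, Igfbp2 at 570.9 and Igfbp5 at 47.6. In siSirt6, Igfbp2 came first at 1172, ahead of Igfbp3 at 916.3, Igfbp4 at 554.6 and Igfbp5 at 102.7. Neighbours in either order were apart in all 3 libraries of the group: the closest were Igfbp4 and Igfbp2 in Control, at 661.8 to 682.1 against 539.0 to 600.4, and Igfbp2 and Igfbp3 in siSirt6, at 1088 to 1216 against 889.9 to 935.4. Igfbp3 therefore stood at 3.29, 2.94 and 3.24 times the per-kb level of Igfbp2 in the Control libraries and at 0.762, 0.732 and 0.859 times that level in the siSirt6 libraries. With 3 libraries against 3, an exact permutation test cannot go below 0.1, and this ratio gave 0.1 (0.133 adjusted over 4 ratios).

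As a share of the summed per-kb level of the 4 genes, Igfbp3 went from 58.2% ± 0.871 to 33.4% ± 1.45 and Igfbp2 from 18.5% ± 0.943 to 42.7% ± 1.74 (SD, n = 3). Igfbp4 went from 21.7% ± 0.604 to 20.2% ± 0.430, and Igfbp5 went from 1.54% ± 0.100 to 3.74% ± 0.164. With the median length of annotated transcripts in place of the longest, Igfbp4 held the highest share in both groups, at 53.6% and 50.4%. Igfbp2 still passed Igfbp3: in Control it held 11.3% to 12.7% against 33.1% to 34.4%, and in siSirt6 26.5% to 28.7% against 18.7% to 20.2%. The summed read counts of the 4 genes were 7912, 7880 and 8067 in Control and 6528, 6541 and 6405 in siSirt6. All siSirt6 sums of these 4 genes were below all Control sums. With Igfbp7 added, sums were 47346, 47470 and 47659 in Control and 50074, 48934 and 48939 in siSirt6. Those siSirt6 sums were all above the Control sums, though Igfbp7 itself had no stable direction, as described further on.

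**Figure D2:**
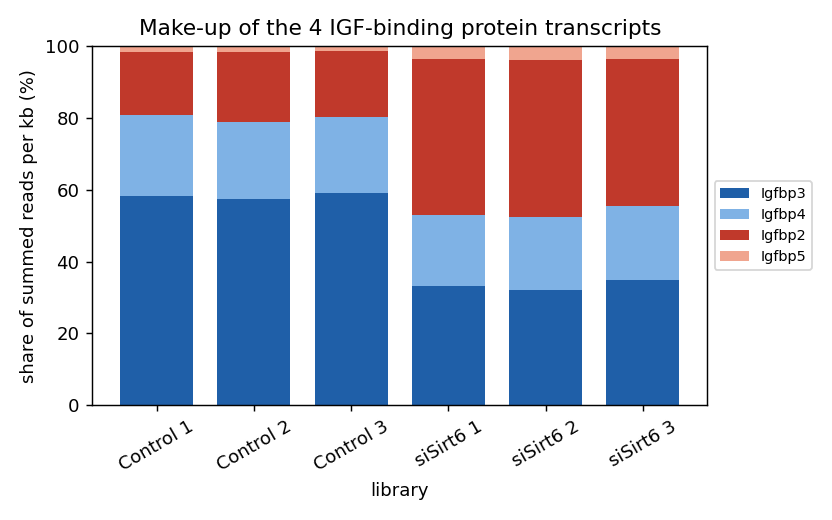
Share of each of the 4 binding protein genes in their summed reads per kb of longest transcript (y axis, percent) in each of the 6 libraries. Igfbp3 holds 57.4% to 59.1% in Control and 32.1% to 34.9% in siSirt6, and Igfbp2 17.7% to 19.5% and 40.7% to 43.8%.

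Transcript length moved with the changes across the tables. Tested genes were put in 5 groups of like size by transcript length. A log2 fold change above 0 was seen in 82.6% of the shortest group (67 to 1799 nt) and in 20.8% of the longest (5444 to 123179 nt). Igfbp2, at 1307 nt, belongs to the shortest group and rose. Igfbp5, at 6006 nt, belongs to the longest group and rose against that trend. Igfbp3, at 2421 nt, belongs to a group in which 66.0% were above 0, and it fell. After correction for length and GC content, the log2 fold change was 0.74 ± 0.050 for Igfbp2, 1.32 ± 0.073 for Igfbp5, -1.12 ± 0.031 for Igfbp3 and -0.27 ± 0.033 for Igfbp4 (SE), all still past the limma threshold. With that correction 2661 of all tested genes were higher and 2630 lower, so passing still says little.

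**Figure D3:**
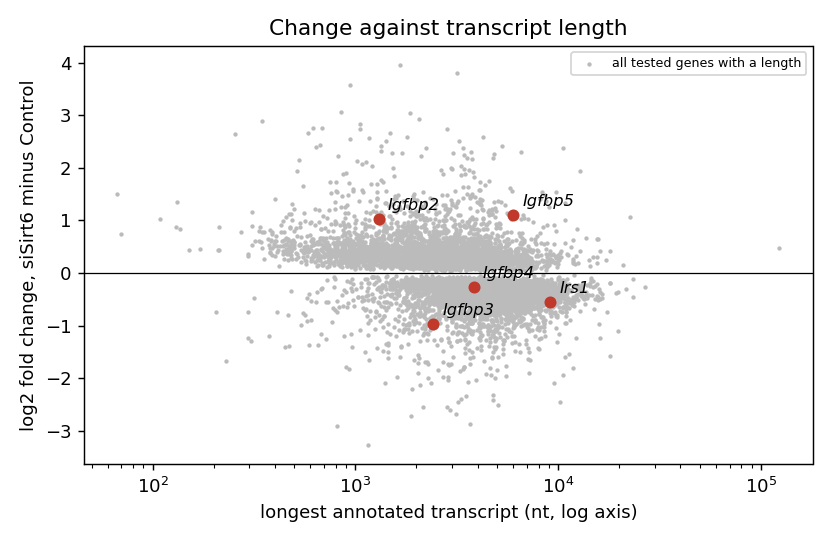
Log2 fold change, siSirt6 minus Control (y axis), against the longest annotated transcript in nt (x axis, log scale) for all tested genes with a length (grey) and the 5 members (red). Igfbp5 lies high among long transcripts, at 6006 nt and 1.11, and Igfbp3 lies low at 2421 nt and -0.97.

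Other genes of the IGF axis were read from a list of 22, of which 8 were tested: 3 were higher, 5 lower and none failed the test, again beside 99.8% passing among all genes. Their median log2 fold change was -0.25. Igfbp7, a relative that binds IGF weakly, was by far the most abundant, with 39433, 39590 and 39592 normalised read counts in Control and 43546, 42393 and 42534 in siSirt6. Its log2 fold change of 0.12 ± 0.015 (SE) had no stable direction, being -0.0037 after scaling to listed totals and -0.22 after the length and GC correction. Per kb of longest transcript, Igfbp7 made up 91.4% of the level of the 5 binding protein genes in Control and 92.9% in siSirt6. With median transcript lengths it made up 84.5% and 87.0%.

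Among proteases that cut binding proteins, Htra1, a secreted serine protease, was at 1900, 1908 and 1900 in Control and at 1529, 1526 and 1477 in siSirt6, 0.794 of Control (log2 -0.33 ± 0.037 SE, or -0.55 after the length and GC correction). Pappa2, which cuts IGFBP5 and IGFBP3, was barely present at 11.7, 9.74 and 10.6 in Control and 18.8, 14.4 and 33.3 in siSirt6. Its call (log2 0.91 ± 0.361 SE, limma adjusted p = 0.0170) ended without siSirt6 replicate 3 (log2 0.58, adjusted p = 0.164), with DESeq2 on 5 libraries (adjusted p = 0.0527) and with adjustment over all annotated genes (adjusted p = 0.132).

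At the receptor, the adaptor Grb10, which dampens insulin and IGF1 receptor signalling, rose 1.18-fold from 4526 ± 7.15 to 5350 ± 63.0 (SD, n = 3). Its log2 fold change of 0.24 was 0.12 after scaling to listed totals and 0.43 after the length and GC correction. Shc1, which links the receptor to the MAP kinase pathway, fell from 4774 ± 118 to 3737 ± 152, 0.783 of Control. H19, a noncoding RNA from the imprinted locus that also holds Igf2, was at 410.8, 442.0 and 450.1 in Control and 283.8, 247.4 and 260.2 in siSirt6. It fell to 0.607 of Control (log2 -0.72 ± 0.082 SE). The RNA-binding proteins that bind Igf2 transcripts were lower too: Igf2bp3 fell to 0.664 of Control, and Igf2bp2 to 0.889, with log2 values of -0.17 as tested, -0.29 after scaling to listed totals and -0.0061 after the length and GC correction, where its call was lost. By position, Igf2bp3 overlaps Malsu1, Igfbp7 overlaps Polr2b and Htra1 overlaps Fgfr2, each on the opposite strand. On their own strand, H19 overlaps Mir675 and Pappa2 overlaps the noncoding gene 1600012P17Rik, which counting by strand would not separate.

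**Figure D4:**
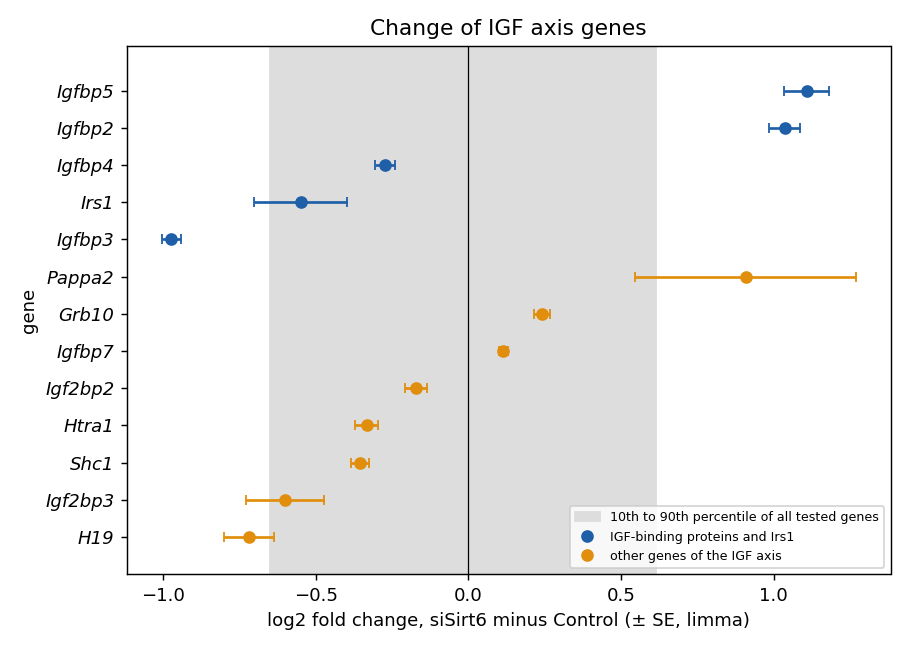
Log2 fold change, siSirt6 minus Control, with SE from limma (x axis) for the 5 members (blue) and the 8 other genes of the IGF axis (orange), over the range from the 10th to the 90th percentile of all tested genes (grey, -0.65 to 0.62). Igfbp2, Igfbp5 and Igfbp3 lie outside the grey range, as do Pappa2 and H19.

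Genes downstream of the receptor are read beside the 50.5% higher and 49.3% lower among all tested genes, whose median log2 fold change was 0.08. In the PI3K and mTOR list, 17 of 32 genes were tested, with 6 higher and 11 lower and a median log2 fold change of -0.37. Deptor, an inhibitor bound to mTOR, fell to 0.521 of Control (log2 -0.94 ± 0.070 SE), and Pik3r1, the regulatory subunit of PI3K, fell to 0.633. Eif4ebp1, a translation repressor that mTOR inactivates, rose 1.40-fold and the ribosomal protein gene Rps6 1.41-fold. The length and GC correction left 6 higher, 6 lower and 5 without a call, and moved the median to -0.048. Calls were lost across the tables too: over all tested genes it left 2661 higher and 2630 lower, against 3624 and 3542 without it. With it, log2 values went from 0.50 to 0.15 for Rps6, from 0.49 to 0.33 for Eif4ebp1, from -0.66 to -0.35 for Pik3r1 and from -0.94 to -0.60 for Deptor.

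In the MAP kinase list, 16 of 19 genes were tested, 6 higher and 10 lower, with a median of -0.24, beside the same 50.5% and 49.3% of all tested genes. The feedback inhibitors fell: Dusp6, a phosphatase for ERK, to 0.544 of Control (log2 -0.88 ± 0.045 SE), Spry4 to 0.649 and Spry1 to 0.737. Of the kinases directly above ERK, Map2k2 rose 1.32-fold (log2 0.40, or 0.23 after the length and GC correction), and Map2k1, named after its values were seen, fell to 0.853 of Control. Scaling to listed totals gave 3 higher and 10 lower, beside 2710 higher and 3567 lower among all tested genes. The length and GC correction gave 6 higher and 8 lower, with a median of -0.070, beside 2661 higher and 2630 lower among all tested genes.

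FOXO transcription factors are held out of the nucleus by PI3K signalling. Of 20 of their known target genes, 12 were tested, 3 higher and 9 lower, with a median of -0.45, again beside 50.5% higher and 49.3% lower overall. Sesn3 and Sesn1, stress-induced regulators of mTOR, fell to 0.527 and 0.549 of Control, the transcription factor Klf15 to 0.572 and the mTOR inhibitor Ddit4 to 0.676. The length and GC correction gave the same counts, 3 and 9, with Sesn3 at -0.57 in place of -0.92 on the log2 scale. Over all tested genes it gave 2661 higher and 2630 lower. Scaling to listed totals gave 1 and 9, beside 2710 higher and 3567 lower among all tested genes.

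**Figure D5:**
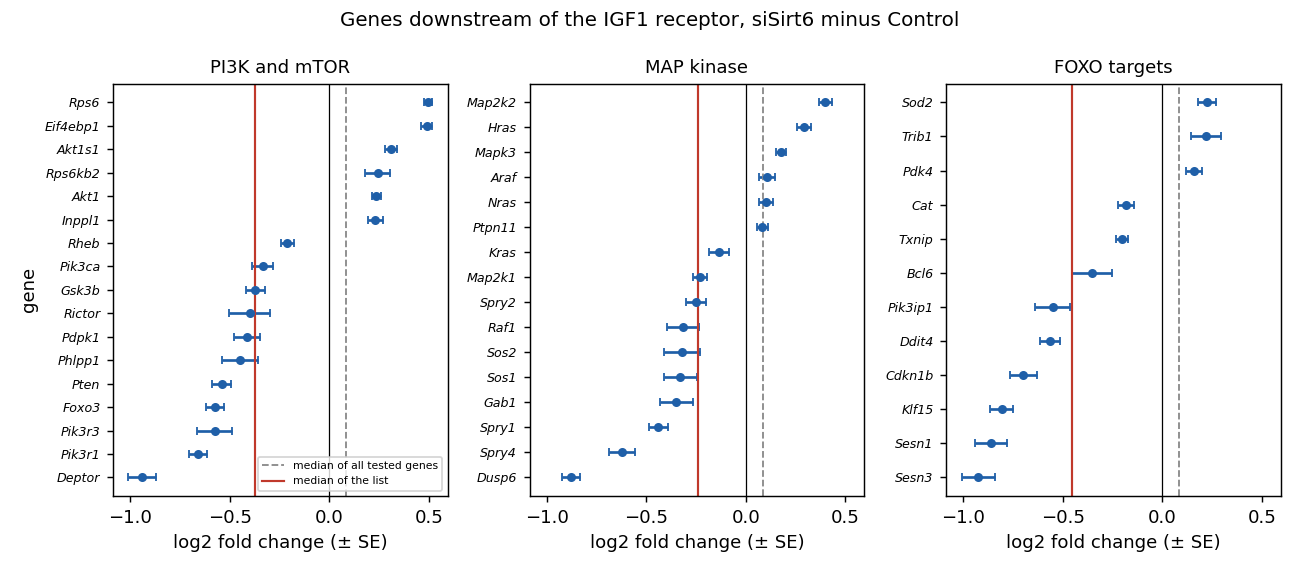
Log2 fold change with SE (x axis) of each tested gene in 3 lists downstream of the IGF1 receptor: 17 of PI3K and mTOR, 16 of MAP kinase and 12 FOXO targets. The red line is the list's median (-0.37, -0.24 and -0.45) and the dashed line the median of all tested genes (0.08).

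Markers of other cell types moved in the same libraries, and their part in these results was not tested. Counts of markers stand beside 50.5% higher and 49.3% lower among all tested genes. Sums given for markers are of normalised read counts. All 10 tested endothelial markers were higher (10 of 13 listed), with sums of 2975 to 3217 in Control and 4471 to 4621 in siSirt6. The VEGF receptor gene Flt1, the most abundant of them, made up most of these sums, with means of 1998 in Control and 2557 in siSirt6. Flt1 rose 1.28-fold and the sialomucin gene Emcn 1.39-fold. The VEGF receptor gene Kdr rose 2.97-fold, from 97.2 ± 10.3 to 288.8 ± 36.2 (SD, n = 3). The log2 value of Flt1, 0.36, was 0.60 after the length and GC correction and 0.24 after scaling to listed totals. Of 8 tested fibroblast markers (10 listed), 3 were higher and 5 lower, with sums of 91304 to 92277 and 75843 to 77131. Gsn made up most of these sums, with means of 72100 in Control and 57433 in siSirt6. Log2 fold changes of the 8 ran from -1.60 to 0.71. Gsn fell to 0.797 of Control and Pdgfra to 0.784, while Ly6a was 1.24-fold higher, though its log2 value turned to -0.048 after the length and GC correction. With that correction Pdgfra went from -0.35 to -0.083. Smooth muscle markers were higher in 8 of 9 cases (12 listed), with sums of 89136 to 89345 and 136967 to 138101. Acta2 made up most of these, with means of 58253 in Control and 96836 in siSirt6. Acta2 rose 1.66-fold, Tpm2 1.45-fold and Cald1 1.24-fold, with log2 values after the length and GC correction of 0.56, 0.34 and 0.51. Scaling to listed totals gave 0.19 for Cald1. Of 11 macrophage markers 3 were tested, with sums of 1777 to 1822 and 1978 to 2018. Lyz2 stood at 1.08 of Control, C1qb at 1.26 and Cd68 at 1.27, and their log2 values were -0.17, -0.036 and 0.025 after the length and GC correction. Scaling to listed totals gave -0.0097 for Lyz2. Of 5 adipocyte markers 3 were tested, with sums of 1605 to 1657 and 1765 to 1793. Adipoq rose 1.36-fold (log2 0.44, or 0.17 after that correction), Plin1 fell to 0.756 of Control, and Cidec stood at 1.13, with a log2 value of -0.092 after it. None of the tested markers was at 0.

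Genes with the profile most like each member over the 6 libraries were found by Euclidean distance between log2 values centred on the Control mean, among 6219 genes outside the lists. Nearest to Igfbp3 were Fzd1, a WNT receptor, at a distance of 0.0471, and Prelp, a leucine-rich matrix proteoglycan, at 0.0507. Prelp went from 4965 to 2575 in the group means and Fzd1 from 2172 to 1105. Gpnmb and Fkbp5 were nearest to Igfbp4, at 0.0359 and 0.0362. For Igfbp2 they were Tinagl1, a matrix glycoprotein, at 0.165 and Grwd1 at 0.168, and for Igfbp5 the interferon-induced Ifit3 at 0.159 and the keratin gene Krt80 at 0.162. Nearest to Irs1 were Cldn11 at 0.245, with 138.1 in siSirt6 replicate 2 beside 92.9 and 87.4 in the others, and the imprinted gene Mest at 0.296, with 120.6 beside 88.0 and 84.3. As with Irs1, siSirt6 replicate 2 was the highest of its group for both, which a choice by likeness of profile favours.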

How the data were processed

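Stranded mRNA libraries from 3 siSirt6 and 3 Control samples were analysed. Per the submitters' processing notes, Trimmomatic, HISAT2, Cufflinks, HTSeq and mm10 were used. Roles and versions are not given in the sources used here. Per gene, the deposited signal came out as whole reads divided by 1 factor per library (100% of values within 0.01 reads), with factors between 0.961 and 1.04. No source used here says how the authors obtained these factors. No column was left without a sample. Replicate pairs differed by more than sampling noise (chi-square per degree of freedom 1.94 to 2.49).

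The planned test was edgeR for counts, or limma for other values; limma 3.58.1 in R 4.3.3 (trend, robust, 2-sided) was run on log2(value + 1), which understates changes of low genes. The 7179 genes reaching a value of 10 in 3 or more libraries entered the test, with Benjamini-Hochberg adjustment over all of them and a threshold of 0.05. N-fold values are ratios of group means. The test was tried on simulated data. Lengths, positions and GC content came from GENCODE vM21 (7331 of 7384 identifiers found), promoters from RefSeq. Exact permutation tests used scipy 1.17.1.

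Members and lists were chosen with earlier results of these data known. The genes named are Sirt6, all members, all tested genes of the IGF axis list, the 4 smallest p of each downstream list, the 3 most abundant of each marker list and the 2 nearest profiles per member. Other names are said to be chosen later, or give positions or the range of marker levels. The corrections for length and GC, and scaling to totals over listed genes, are alternatives. Count tests (edgeR 4.0.16, DESeq2 1.42.0, limma-voom) ran on reads recovered from 5 libraries, since an automatic check of the unit did not accept siSirt6 replicate 1.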

Additional observations from a re-analysis of the deposited data

How the results depend on the processing

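Under 18 alternatives (scaling, pseudocount, filter, count tests, length and GC trend, adjustment over all annotated genes, the replicate block and 1 library left out), Igfbp2, Igfbp3, Igfbp4, Igfbp5 and Sirt6 kept direction and call. Their log2 fold changes ranged from 0.74 to 1.09, -1.12 to -0.95, -0.39 to -0.26, 0.99 to 1.32 and -2.45 to -2.06. Irs1 ranged from -0.73 to -0.23 and lost its call with the length and GC trend removed (-0.23). Listed totals moved the median of all tested genes by -0.119 and gave 2710 genes higher and 3567 lower (43.2% of calls higher against 50.6%). With the trend removed, 2661 were higher and 2630 lower, against 3624 and 3542. Without 1 library, Irs1 lay between -0.73 and -0.43. Past 2-fold on the log2 scale stood 557 genes, or 208 with the stricter filter on mean level.

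Same-numbered samples did not deviate together (r of -0.0195, 0.0268 and -0.000793), so the numbers were not read as pairs. Fitting the replicate block gave 3629 higher and 3540 lower, with no change to a member's call (Igfbp3 -0.97, Igfbp2 1.04, Igfbp5 1.11, Igfbp4 -0.27, Irs1 -0.55, Sirt6 -2.21).

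List medians moved as follows. Listed totals gave -0.39 for the members, -0.37 for the other IGF axis genes, -0.49 for PI3K and mTOR, -0.36 for MAP kinase and -0.57 for FOXO targets. TMM gave -0.28 for the axis, -0.40 for PI3K and mTOR and -0.27 for MAP kinase. The trend removed gave -0.31 for the axis, -0.048 for PI3K and mTOR and -0.070 for MAP kinase. Without 1 library the medians of PI3K and mTOR lay between -0.39 and -0.32 and those of MAP kinase between -0.26 and -0.22. With median transcript lengths the share of Igfbp2 changed by 16.0 percentage points, Igfbp3 by -14.1, Igfbp4 by -3.16 and Igfbp5 by 1.29.

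Reversed values outside the members were Igfbp7 (-0.0037 with listed totals, -0.22 with the trend removed), Ly6a (-0.048), C1qb (-0.036), Cidec (-0.092) and Lyz2 (-0.17) with the trend removed, and Lyz2 with listed totals (-0.0097). The causes were not tested. Whole library depth is unknown.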
